A study of Mus musculus with 5 samples.

Results

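Conventional dendritic cells type 2 (cDC2s) of the mouse lung were taken from 5 droplet scRNA-seq libraries by the raw UMIs of a few genes in each barcode. A barcode was counted as a cDC2 when it held 3 or more UMIs of Cd209a and Mgl2 together, 5 or more of H2-Aa, at most 1 of Xcr1 and Clec9a together, at most 1 of Fscn1, fewer than 10 of C1qa, C1qb and C1qc together, and 0 of Cd3e, Cd79a, Car4 and Siglech. Barcodes were kept for this if they had between 300 and 8000 detected genes, between 800 and 60000 UMIs, and less than 15% of UMIs from mitochondrial genes. By this rule 774 of 44772 kept barcodes were cDC2s.

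Dendritic cells take up antigen in tissue, load peptides on MHC molecules and carry them to lymph nodes, where they start T cell responses. The type 1 subset (cDC1s) expresses Xcr1 and Clec9a, depends on Irf8 and Batf3, and is known for presenting cell-derived antigen on MHC class I, whereas cDC2s depend more on Irf4 and Klf4, express Sirpa, Itgam (CD11b) and C-type lectins such as Cd209a, Mgl2 and Clec10a, and are known for priming CD4+ T cells. Dendritic cells of either subset that have matured and migrate carry Ccr7 and Fscn1.

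All libraries came from lungs of Ms4a3-CreER;R26-tdT mice on a mixed C57BL6/129 background, adults from 7 weeks of age in a study that used males and females. The Ms4a3 promoter drives tamoxifen-inducible CreER in granulocyte-monocyte progenitors and their descendants, and Cre then switches on the tdT reporter from the R26 locus, so that the label follows that lineage and not dendritic cells as such. The mice had received tamoxifen, and the groups were sham (PBS instilled into the trachea) and days 3, 7, 14 and 28 after 2 U/kg intratracheal bleomycin, an agent that injures the lung and leads to fibrosis. There was 1 library per group, from lungs that were perfused and digested, with cells that the labels call immune cells. No test between time points was therefore made, and the intervals given for single libraries are exact 95% intervals that cover counting error only.

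The libraries held 131210167 UMIs for sham and, in order of time, 89769386, 151234640, 144984156 and 167506186 UMIs after bleomycin. The day 7 library stood apart, since it held 10000 barcodes of which the lowest had 4624 UMIs, whereas the lowest barcodes of the other libraries had 500 to 502 UMIs. Whether its barcodes were chosen in another way before deposit is not given in the sources used here, so its shares may rest on another selection of barcodes. Pairs of libraries shared 22 to 41 barcodes, and 0 of the cDC2 barcodes occurred in more than 1 library. Median depth of a cDC2 was 13583 UMIs in sham and 16410.5, 12739.5, 17129 and 13793 UMIs at days 3, 7, 14 and 28. A doublet score predicted 7 of the 43 sham cDC2s (16.3%) to be doublets, against 0, 12, 2 and 2 cells in the later libraries, and these cells were left in. Xist, which female cells express, was at 0 CPM in the cDC2s of every library but day 7 (0.77 CPM), and the Y-linked gene Ddx3y was at 56.8 to 114 CPM in all 5.

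The rule picked far more cells at day 7 than at any other time. There were 43 cDC2s among 9238 kept barcodes in sham (0.465%, exact binomial interval 0.337 to 0.626%) and 36 among 8004 at day 3 (0.450%, 0.315 to 0.622%). At day 7 postinjury 574 of 9493 kept barcodes were cDC2s (6.05%, 5.58 to 6.54%). The share was 1.07% at day 14 (83 of 7757, 0.853 to 1.32%) and 0.370% at day 28 (38 of 10280, 0.262 to 0.507%). The intervals of day 7 and day 14 lay above those of the other 3 libraries, which overlapped each other. Day 7 thus supplied 74.2% of all cDC2s, and the other libraries together 200 cells.

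**Figure D1:**
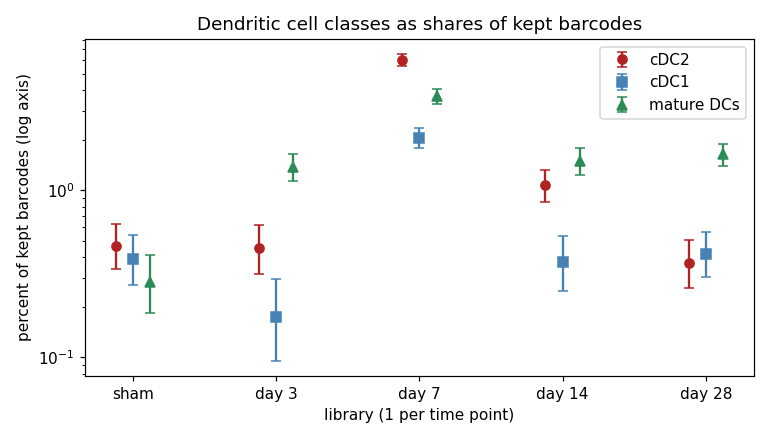
Share of kept barcodes (percent, log axis) that were cDC2s, cDC1s or mature DCs in each of the 5 libraries, with exact binomial 95% intervals. All 3 classes had their highest share at day 7, where cDC2s reached 6.05%.

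cDC1s and mature DCs, picked by rules of the same kind, also had their highest shares at day 7. cDC1s, which held 3 or more UMIs of Xcr1 and Clec9a and at most 1 lectin UMI, made up 0.390, 0.175, 2.06, 0.374 and 0.418% of kept barcodes from sham to day 28. Mature DCs, which held 3 or more UMIs of Fscn1 and 1 or more of Ccr7, made up 0.281, 1.37, 3.67, 1.495 and 1.64% in the same order. cDC2s outnumbered mature DCs in sham and at day 7, and at day 28 the 38 cDC2s were fewer than the 43 cDC1s and the 169 mature DCs. When barcodes under 4624 UMIs were left out of every library, cDC2s were 0.594% of sham and 0.562, 6.05, 1.45 and 0.510% of the later libraries, so day 7 was also highest with the depth limit of its own library imposed on all. The share of all sampled cells depends on every other cell type in the suspension and was not a count per lung.

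How the limits of the rule fell differed by library. Of the barcodes with 3 or more lectin UMIs (192 in sham, then 136, 1518, 288 and 144), 18, 16, 419, 114 and 37 failed only on the limit for complement C1q, which macrophages express, and 45 in sham failed only on Car4, against 5, 67, 9 and 7 later. Cells just outside the lectin limit, with 2 lectin UMIs, numbered 2, 2, 45, 2 and 3, and those just inside, with 3, numbered 2, 1, 35, 2 and 4. At day 7, where both sets could be compared, the cells with 2 lectin UMIs had Clec10a at 191 CPM, Ccl17 at 1660 CPM and Flt3 at 37.4 CPM, and the cells with 3 had Clec10a at 202 CPM, Ccl17 at 2022 CPM and Flt3 at 68.9 CPM. Clec10a in these sets was near its day 7 level over all cDC2s, whereas Ccl17 lay below its level there (2898 CPM). Lyz2 was at 2758 CPM in the cells with 2 lectin UMIs and 2533 CPM in those with 3. Both values lay above its level over all day 7 cDC2s, given below.

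The balance of the 2 lectins used in the rule differed between libraries, which is given here as a description. Cd209a encodes a mouse homologue of DC-SIGN and lies at chr8:3743397-3748984, and Mgl2 (CD301b) lies at chr11:70130329-70137550 (GRCm38). Median lectin UMIs per cell were 34 in sham and 15, 14, 28 and 18 later, with the lowest cell of each library at 3 and the highest between 72 and 111. Both lectins were seen in 62.8, 22.2, 57.0, 80.7 and 60.5% of cDC2s from sham to day 28. At day 3 Cd209a supplied 83.0% of the lectin UMIs, against 39.2% in sham and 33.9, 44.1 and 46.3% at days 7, 14 and 28. Mgl2 was at 221 CPM (CPM being a gene's summed UMIs scaled to the summed UMIs of the cDC2s of the library) at day 3, the lowest of the 5 libraries, which otherwise lay between 827 and 1680 CPM.

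The label was checked on genes that the rule did not use. Clec10a, the other macrophage galactose-type lectin, lies next to Mgl2 at chr11:70156197-70170834 (GRCm38), and because the coding sequences of this pair are alike, reads may be hard to assign between them. It was at 245 CPM in sham cDC2s and 292, 203, 239 and 116 CPM at days 3, 7, 14 and 28. In cDC1s it did not exceed 14.6 CPM and in mature DCs 10.5 CPM in any library. Clec10a was thus higher in cDC2s than in the other dendritic cells in all 5 libraries. The rule for cDC1s allowed at most 1 lectin UMI, and the part of shared reads in that difference was not tested. Ccl17, the other marker of the label, did not separate the classes in every library, as given below. Only at day 28 was Clec10a in cDC2s lower than in sham by 2-fold or more (log2 ratio -1.09, -1.54 to -0.64).

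Genes of dendritic cells and of monocytes were both present. Zbtb46, a transcription factor of conventional dendritic cells, was at 19.0, 30.1, 25.9, 30.7 and 21.6 CPM in cDC2s from sham to day 28. Classical monocytes (3 or more Ly6c2 UMIs, 1 or more Ccr2 UMIs and fewer than 5 of H2-Aa) had 0.37 CPM at day 3 and 0 CPM in the other libraries. They were only 10 cells at day 14 and 3 at day 28, too few for 0 CPM there to show absence. Flt3, the receptor on which dendritic cells depend, was at 74.4, 45.1, 45.4, 121 and 90.2 CPM in cDC2s. Lyz2, abundant in monocytes and macrophages, was at 3051, 3244, 1234, 1924 and 3847 CPM in cDC2s and between 12774 and 33157 CPM in the classical monocytes of sham, day 3 and day 7. Csf1r was at 158 to 204 CPM and Cd14 at 316 to 392 CPM, so genes that monocytes and macrophages also express were not absent. Of the 17 listed monocyte markers, 16 or 17 had UMIs in every library, with S100a4 or Lyz2 the most abundant, and Vcan was at 0 CPM in sham and day 3. They summed to 9773, 15744.5, 9774, 9073 and 11430 CPM in cDC2s from sham to day 28, above the 7078, 4079, 7176, 7704 and 6895 CPM of the listed cDC2 markers. The latter sums include Cd209a and Mgl2 of the rule, and without these 2 genes they were 4313, 2785, 5925, 5751 and 5292 CPM. The part of the monocyte markers in the results was not tested.

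Markers of other cell types were present at different levels. Of 14 alveolar macrophage markers 10 had UMIs at day 3 and 14 in each other library, and they summed to 2090, 979, 1866, 2233 and 2256 CPM from sham to day 28, with Chil3, Fabp5, Fabp5, Ctsd and Ear2 as the most abundant, and Marco, Fabp4, Ear1 and Krt19 were at 0 at day 3. The 9 C1q macrophage markers that the rule did not use summed to 283, 114, 644, 689 and 866 CPM, with Apoe the most abundant up to day 14 and Mmp12 at day 28, and Folr2 was at 0 in sham and at days 3 and 28, as was Lyve1 at day 28. Basophil and mast cell markers had UMIs for 0 of 6 genes in sham and day 3 and summed to at most 9.80 CPM elsewhere, and red cell markers summed to at most 100 CPM. T cell markers summed to 111, 43.4, 130, 247 and 208 CPM, of which Il7r made up most in sham and from day 7 on, and B cell markers summed to at most 165 CPM, mostly Ighm. Epithelial markers summed to 470, 73.5, 1464, 674 and 543 CPM, with Scgb1a1, a club cell transcript, as the most abundant in every library (1059 CPM at day 7). Neutrophil markers summed to 152, 137, 795, 491 and 165 CPM, with S100a9 the most abundant at day 7 (289 CPM), and Ly6g at 0 in sham, day 3 and day 28. The part of these transcripts in the results below was not tested, and they are given again beside the genes they bear on.

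Ccl17, the chemokine that attracts Ccr4-bearing T cells, was the most abundant of the listed cDC2 markers from day 3 on once the lectins of the rule, Cd209a and Mgl2, were set aside. It lies at chr8:94810453-94812036 (GRCm38). In cDC2s it was at 507, 494, 2898, 1598 and 1284 CPM from sham to day 28. The log2 ratio to sham was -0.04 (-0.27 to 0.20) at day 3 but 2.52 (2.36 to 2.68) at day 7. It was 1.66 (1.49 to 1.83) at day 14 and 1.34 (1.15 to 1.54) in the last library. Single cells supplied 25.9% of the Ccl17 UMIs in sham and 68.2% at day 3, but 1.43% at day 7. The ratio at day 3 thus rested largely on a single cell, which its interval does not cover. It does not show that Ccl17 was unchanged then. cDC1s had 672, 974, 732, 765 and 1274 CPM and mature DCs 1375, 881, 1799, 1135 and 1336 CPM of Ccl17, so in sham and day 3 cDC2s were the lowest of the 3 classes and at days 7 and 14 the highest.

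Against cDC1s, cDC2s carried a distinct set of lectins, Fc receptors and myeloid genes. The comparison summed UMIs per class and library in the 4 libraries with at least 20 cells of both (sham, days 7, 14 and 28) and used edgeR's quasi-likelihood test with library as a block and Benjamini-Hochberg adjustment. Of 6182 genes tested, 462 were higher in cDC2s (7.47%) and 516 lower (8.35%) at an adjusted p under 0.05, with a median log2 difference of -0.00. Libraries are the replicates here, and the test has 3 residual degrees of freedom, so its p-values measure the spread between 4 libraries of different time points.

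The genes with the largest differences from cDC1s included Fcrls, Itgam and S100a4. Fcrls, an Fc receptor-like gene of myeloid cells, was at 201, 22.2, 88.6 and 196 CPM in cDC2s of sham and days 7, 14 and 28, against 0.91 CPM in cDC1s at day 7 and 0 CPM in the other libraries (log2 difference 6.75 ± 0.50 SE, n = 4 libraries, edgeR adjusted p = 2.98e-05). Itgam, the CD11b integrin chain, was at 163, 69.8, 133 and 149 CPM against 3.13, 5.18, 7.29 and 4.39 CPM (4.26 ± 0.26). S100a4, a calcium-binding protein of motile cells, was at 2082, 3524, 2936 and 2622 CPM in cDC2s (3.99 ± 0.28 above cDC1s). Fcrls in cDC2s was lowest at day 7.

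Retnla (5.84 ± 0.98 SE), Tmem176a (5.39 ± 0.53) and Tmem176b (4.91 ± 0.42), Clec10a (4.40 ± 0.31) and Ltb, a membrane-bound TNF family ligand (4.14 ± 0.30), completed the 8 largest increases over cDC1s, with edgeR adjusted p-values from 2.36e-05 to 0.0032. Retnla rested on few cells, as set out for day 7. The 7 largest decreases described here were Cd207 (langerin, -5.15 ± 0.57), Ifi205 (-4.57 ± 0.35), Rab7b (-4.44 ± 0.16), Irf8 (-4.03 ± 0.17), the double-stranded RNA sensor Tlr3 (-3.92 ± 0.23), Mnda (-3.90 ± 0.43) and Sept3 (-3.66 ± 0.35), with adjusted p-values from 6.83e-07 to 0.000286. Irf8 averaged 82.7 CPM in cDC2s and 1288 CPM in cDC1s over the 4 libraries, and Cd207 averaged 0.57 and 110 CPM.

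**Figure D2:**
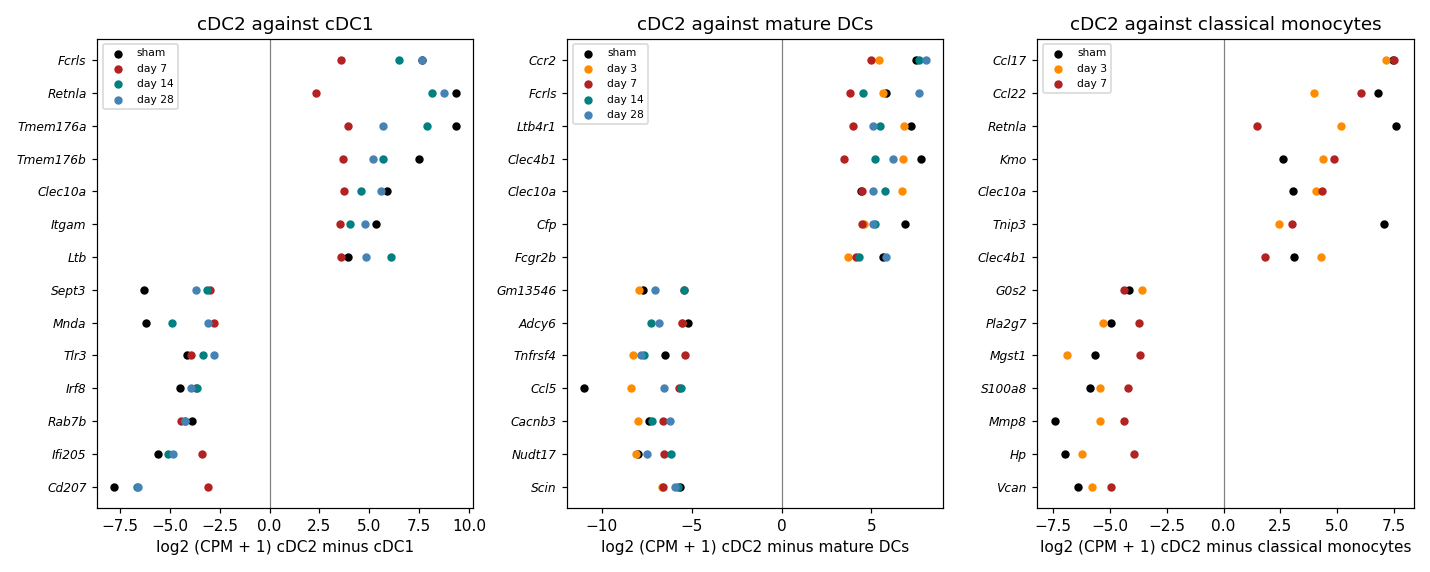
Difference in log2 (CPM + 1) between cDC2s and cDC1s (left), mature DCs (middle) or classical monocytes (right) for the 7 largest increases and 7 largest decreases of each comparison, 1 point per library. Every point of a gene lay on the same side of 0, which the choice of genes required.

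The listed groups described the same contrast. Counts of listed genes against cDC1s are set beside 7.47% of all tested genes higher and 8.35% lower. Of 12 measured C-type lectin receptors 10 were higher in cDC2s than in cDC1s (median log2 difference 2.85), among them Cd209d (8.23 ± 0.39 SE), Clec4n (Dectin-2, 3.34 ± 0.53) and Mrc1 (the mannose receptor, 2.60 ± 0.42), and 2 were lower (Ly75 and Clec12a). Cd209d is a neighbouring relative of Cd209a and may share reads with it. Of 5 Fc receptor genes 3 were higher (median 2.13), including Fcgr3 (2.35 ± 0.24) and Fcgr2b (2.26 ± 0.28). Of 18 cDC2 markers 10 were higher and 2 lower, the latter being Flt3 (-1.30 ± 0.23, adjusted p = 0.0041) and Zbtb46 (-0.68 ± 0.19, adjusted p = 0.039). Of 14 cDC1 markers 13 were lower (median -3.32).

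Transcription factors, type 2 genes and antigen presentation differed as well. Irf4, which cDC2s need, was 3.98 ± 0.25 (SE) log2 units higher than in cDC1s (edgeR adjusted p = 1.26e-05), at 131, 113, 41.9 and 62.7 CPM in the 4 libraries, and 7 of 27 listed transcription factors were higher and 5 lower. Klf4 did not pass the test (0.20 ± 0.15, adjusted p = 0.44). Of 13 type 2 and alternative activation genes 6 were higher and 0 lower, including Il1rl1, the receptor for interleukin-33 (5.84 ± 0.34), Mrc1 and Irf4. MHC class II genes showed no common direction (4 of 13 higher, 2 lower, median 0.07), and H2-Ab1 differed by 0.06 ± 0.10. MHC class I presentation genes were lower for 10 of 16 and higher for 0 (median -0.65), with H2-K1 at -0.45 ± 0.12.

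Of 12 measured cytokines 3 were higher in cDC2s than in cDC1s and 4 lower. Il1b was 1.84 ± 0.20 (SE) log2 units higher in cDC2s than in cDC1s (edgeR adjusted p = 0.000267) and Il12b was lower (-2.74 ± 0.30, adjusted p = 0.000267). Osm and Il1rn were also higher, and Il18, Tnfsf13b and Cxcl16 lower. Ccl17 did not pass the test (0.58 ± 0.34, adjusted p = 0.33), being higher in cDC2s in 3 of 4 libraries, and 0 of 20 cell cycle genes passed it (median -0.04). Genes shared with monocytes were higher in cDC2s for 6 of 12 monocyte markers (S100a4, Csf1r, Cd14, Fn1, Ms4a4c and S100a6) and lower for 0, with Csf1r at 3.07 ± 0.24 and Cd14 at 2.98 ± 0.18. Interferon-stimulated genes were lower for 8 of 22, led by Ifi205, and higher for Cxcl10 only.

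Mature DCs differed from cDC2s in many more genes. In all 5 libraries, 2013 of 8048 tested genes were higher in cDC2s (25%) and 2005 lower (24.9%) by the same test, with a median of 0.00. Ccr2, the receptor for Ccl2, was at 641, 441, 267, 420 and 778 CPM in cDC2s from sham to day 28 and at 2.64, 9.19, 7.57, 1.14 and 1.93 CPM in mature DCs (log2 difference 6.21 ± 0.41 SE, n = 5 libraries, edgeR adjusted p = 2.59e-07). Ccl5, a chemokine for T cells and monocytes, was at 3.17, 31.7, 78.7, 111 and 80.4 CPM against 8364, 10761, 4229, 5348 and 7651 CPM (-7.11 ± 0.56, adjusted p = 9.99e-07). The remaining largest increases were Fcrls, Ltb4r1, Clec4b1, Clec10a, Cfp, Fcgr2b and Gpr171, with log2 differences from 4.12 to 6.07. The remaining largest decreases, from -6.63 to -8.81, were Scin, Nudt17, Cacnb3, Tnfrsf4 (OX40), Adcy6, Bcl2l14 and Gm13546.

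The counts of listed genes are set beside 25% of all tested genes higher and 24.9% lower than in mature DCs, and some groups lay near these shares, such as interferon-stimulated genes with 13 of 37 higher and 11 lower. C-type lectin receptors were higher for 12 of 14 (median log2 difference 3.31), Fc receptors for 5 of 5 (median 2.84) and MHC class II presentation genes for 9 of 16 with 3 lower (median 0.87), with H2-Ab1 at 1.97 ± 0.23 (SE). Cell cycle genes were higher for 12 of 15 (median 1.71) and immediate early genes for 17 of 18 (median 1.48), the latter a group that tissue digestion is known to induce. Mature DC markers were lower for 15 of 15 (median -4.51), costimulation and checkpoint ligands for 10 of 14 (among them Cd70, Cd274, Cd40 and Cd86) with 3 higher, and MHC class I presentation genes for 15 of 16 (median -1.59). Chemokine ligands were higher for 9 of 15, among them Ccl2, Ccl3, Ccl4, Cxcl2 and Cxcl10, and lower for Ccl5, Ccl22, Cxcl16 and Cxcl9. Without the day 7 library, cell cycle genes were higher for 7 of 11.

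Against classical monocytes, cDC2s were higher in Ccl17, Ccl22 and several dendritic cell factors. In the 3 libraries with at least 20 cells of both classes (sham, days 3 and 7), 291 of 6066 genes were higher in cDC2s (4.8%) and 412 lower (6.79%) by the same test, with a median of -0.01 and 2 residual degrees of freedom. MHC class II genes were left out, because the monocyte rule limits H2-Aa. Ccl17 was at 507, 494 and 2898 CPM in cDC2s and averaged 6.43 CPM in monocytes (log2 difference 7.77 ± 0.31 SE, n = 3 libraries, edgeR adjusted p = 4.2e-05). Ccl22, its neighbour and fellow Ccr4 ligand, averaged 137 CPM against 1.53 CPM (5.41 ± 0.44, adjusted p = 0.0005). These were the only 2 of 14 chemokine ligands that were higher, and Ccl5, Ccl12, Cxcl1 and Ccl2 were lower. Zbtb46 (6.43 ± 0.62), Irf4 (3.83 ± 0.47) and Flt3 (3.35 ± 0.37) were higher, as were Kmo (4.34 ± 0.42), Clec10a (3.96 ± 0.31), Tnip3, Clec4b1, Ccnd1 and Retnla.

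Most monocyte markers were lower in cDC2s. Vcan (versican, -5.37 ± 0.43 SE), Hp (haptoglobin, -5.33 ± 0.58), Mmp8 (-5.06 ± 0.51), S100a8 (-4.95 ± 0.42), Mgst1 (-4.77 ± 0.51), Pla2g7 (-4.45 ± 0.34), G0s2 (-4.35 ± 0.29) and Slc11a1 (-4.34 ± 0.27) were the largest decreases, with edgeR adjusted p-values up to 0.0015. Of 15 monocyte markers 11 were lower (median -2.95) and 0 higher, and of 18 cDC2 markers 11 were higher (median 2.18) and 0 lower. Csf1r was also lower (-1.03 ± 0.21, adjusted p = 0.019). The reporter transcript, RFP, was lower in cDC2s by 1.60 ± 0.38 (log2 difference -1.60, adjusted p = 0.032).

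For each day after bleomycin the cDC2s were set against those of sham by the ratio of CPM, over genes that reached 50 CPM in at least 1 of the pair, and genes 2-fold or more apart were counted. These counts rest on 1 library each and on 36 to 83 cells outside day 7, and all 4 ratios share the sham library, so the values are descriptions. A gene that reached the minimum only in the library where it was high had its direction fixed by that choice. Counts of interferon-stimulated, cell cycle and chemokine genes are therefore given with the number of such genes. The summed level of all their members, which needs no minimum, is given as well. Other lists carry these values only in part. Fewer cells with a transcript and less of it per cell cannot be told apart in summed UMIs.

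Day 3 was marked by interferon-stimulated genes. Of 3195 genes compared, 322 were at least 2-fold higher than in sham (10.1%) and 290 at least 2-fold lower (9.08%), with a median log2 ratio of 0.03. The 39 listed interferon-stimulated genes found in the files summed to 662, 19208, 1861, 1149 and 1401 CPM in cDC2s from sham to day 28. At day 3, 37 of them reached the minimum, 35 only through day 3, and 36 were at least 2-fold higher, including both that reached it in sham. Ly6a, a surface protein induced by interferons, was at 4.75 CPM in sham, 1829 CPM at day 3 and 88.0, 6.28 and 27.4 CPM at days 7, 14 and 28 (log2 ratio 8.59 at day 3, 7.04 to 10.87). Isg15, a ubiquitin-like modifier, was at 7.92, 1607, 47.2, 60.7 and 23.5 CPM (7.67, 6.44 to 9.29), and Irf7, the transcription factor that amplifies interferon production, at 7.92, 1599, 31.6, 16.1 and 7.84 CPM (7.66, 6.43 to 9.28). In these 3 genes day 3 was high and the other libraries were at 88.0 CPM or lower.

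Of the other leading genes at day 3, Ifit3 and Rsad2 are on the list of interferon-stimulated genes. Mnda, which the GRCm38 annotation names Ifi211, is on the list under neither name. Ifit3, which may share reads with its close relative Ifit3b, was at 4.75 CPM in sham and 778 CPM at day 3 (log2 ratio 7.36, 5.80 to 9.64). Rsad2 (viperin) was at 0 in sham, where a count of 0 allows up to 3 UMIs of the library's cDC2s, and at 583 CPM at day 3, 6.94 log2 units above that floor. The exact interval of the ratio began at 6.63, and without the highest cell, which supplied 44.1% of the Rsad2 UMIs, the value was 6.12. Mnda was at 1.58 CPM, from a single UMI, and 590 CPM (log2 ratio 8.54, 6.05 to 13.85). Cxcl10, a ligand of Cxcr3 on T cells, was at 19.0, 2173, 61.1, 38.4 and 70.6 CPM in cDC2s, against 254 CPM in cDC1s and 1584 CPM in classical monocytes at day 3. One cell supplied 33.8% of the Cxcl10 UMIs at day 3, without which cDC2s were at 1479 CPM, below monocytes, and 88.9% at day 28, without which they were at 8.16 CPM. Cxcl9, another Cxcr3 ligand, was at 70.2 CPM in day 3 cDC2s, with 47.6% from 1 cell.

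Promoter sequence is shown for 3 of the 6 genes with the largest increases at day 3, because interferon-stimulated genes are known to be reached through an element with the core GAAANNGAAA. The windows are 80 bases of RefSeq sequence (GRCm38.p6), 5′ to 3′ on the gene's strand, with matches to GAAANNGAAA or its reverse complement in capitals.
Isg15: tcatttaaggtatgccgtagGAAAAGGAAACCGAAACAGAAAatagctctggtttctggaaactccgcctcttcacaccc
Ifit3: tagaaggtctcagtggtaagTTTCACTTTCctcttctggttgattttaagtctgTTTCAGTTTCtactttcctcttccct
Rsad2: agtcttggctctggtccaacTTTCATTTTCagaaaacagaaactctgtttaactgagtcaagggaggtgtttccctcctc
The Isg15 window is chr4:156200837-156200916 (minus strand), with 3 overlapping matches of which the first lies 78 bases before the start. The Ifit3 window is chr19:34583353-34583432 (plus strand), with 2 matches, the first 156 bases before the start, and the Rsad2 window is chr12:26456513-26456592 (minus strand), with 1 match 120 bases before the start. The Irf7 window held no match to these letters, and Ly6a and Mnda had no promoter entry under these names.

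Among promoters of all genes, 936 of 27025 (3.46%) held a match within 250 bases before the start. Of the 36 interferon-stimulated genes at least 2-fold higher at day 3, 28 had a promoter entry and 16 of these (57.1%) held a match. These 36 were nearly all of the 37 listed genes that were measured. The share therefore describes the list and says nothing of the change in cDC2s. A match is a description of the letters and not of a factor bound there.

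Most measured interferon-stimulated genes were also at least 2-fold higher at day 3 in each of the 5 other classes. They were at least 2-fold higher for 34 of 34 in cDC1s (from 14 cells at day 3), 31 of 34 in mature DCs, 39 of 39 in classical monocytes, 27 of 28 in B cells and 29 of 29 in T cells. Of these, 29, 29, 25, 24 and 22 reached the minimum only through day 3, and among those that reached it in sham 5 of 5, 2 of 5, 14 of 14, 3 of 4 and 7 of 7 were higher. The summed level of the list was, in sham and at day 3, 1371 and 20260 CPM in cDC1s, 1007 and 10161 CPM in mature DCs, 3376 and 23590 CPM in classical monocytes, 2146 and 7911 CPM in B cells and 1916 and 10740 CPM in T cells. Over all genes the share at least 2-fold higher was 12.3% in cDC1s, 11.6% in mature DCs, 13.4% in classical monocytes, 5.26% in B cells and 7.41% in T cells. Whether their change in cDC2s differed from that in another class was not tested, with 1 library per time point. Ly6a at day 3 was at 3908 CPM in cDC1s, 2156 CPM in mature DCs, 1962 CPM in B cells and 3457 CPM in T cells, of which B and T cells already had 122 and 578 CPM in sham. MHC class I presentation genes went the same way, with 10 of 13 at least 2-fold higher in cDC2s (10.1% of all genes, median 1.36) and 0 lower, including H2-K1 (910 to 2300 CPM) and B2m (1096 to 2733 CPM). Of the 13, 1 reached the minimum only through day 3. At day 3 they were higher for 8 of 14 in cDC1s, 5 of 15 in mature DCs, 15 of 15 in classical monocytes, 7 of 14 in B cells and 4 of 15 in T cells, and lower for 0 in each. Only through day 3 did 1, 1, 3, 0 and 1 of these reach the minimum. In cDC2s at days 7 and 14, 0 of 13 were 2-fold apart from sham in either direction, and at day 28 only H2-Q4, of 12 measured, was lower.

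**Figure D3:**
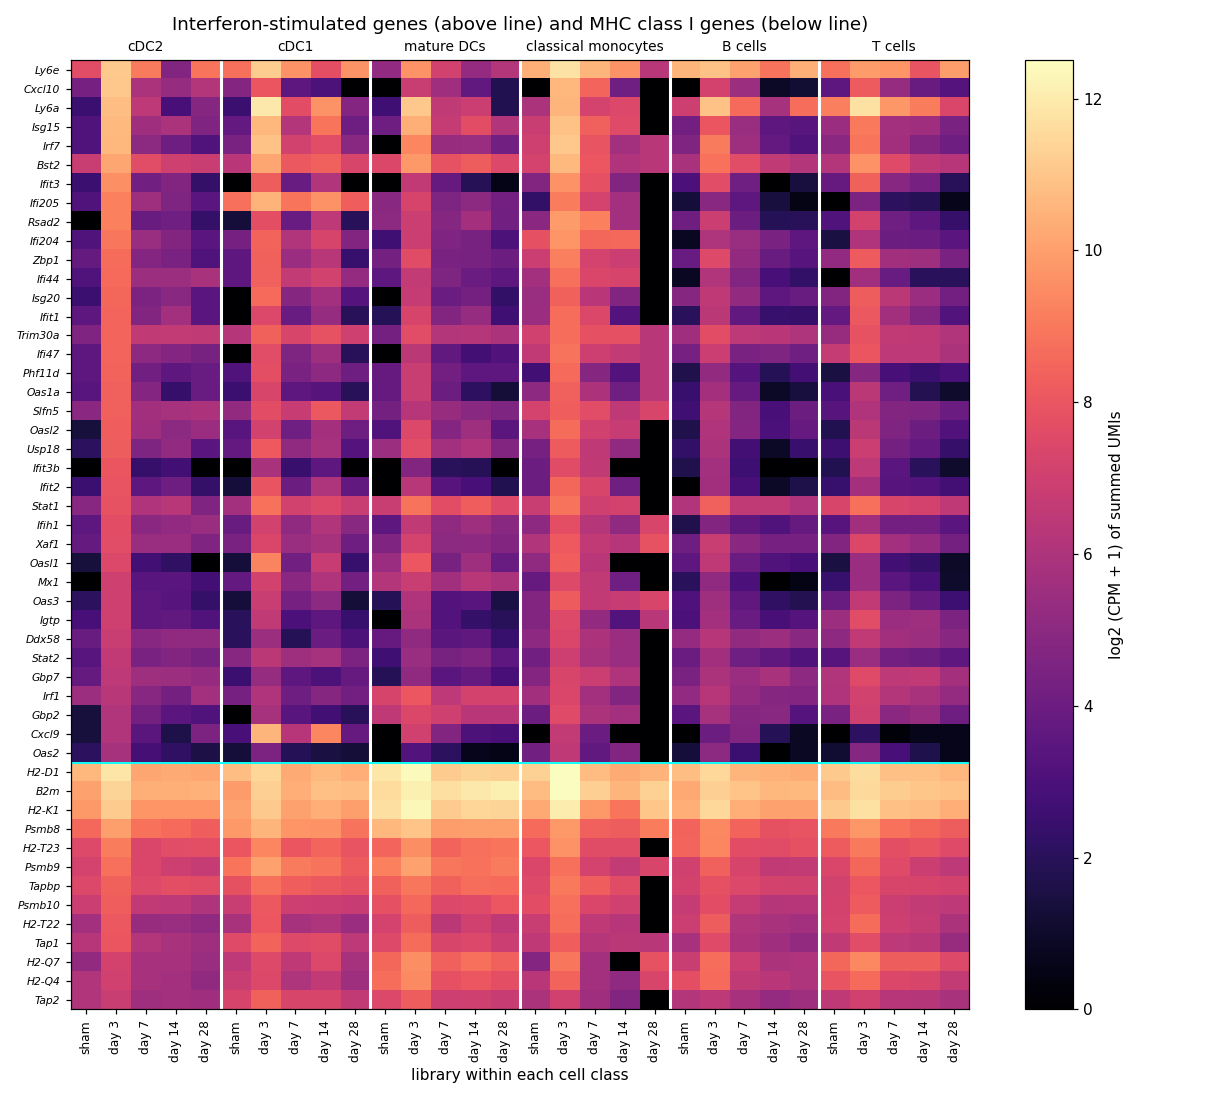
Log2 (CPM + 1) of interferon-stimulated genes (above the line) and MHC class I presentation genes (below it) in each class and library, as a colour scale. In cDC2s the day 3 column stands out for interferon-stimulated genes (summed level 19208 CPM, against 662 CPM in sham), and the day 3 columns of the other 5 classes are bright as well.

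Some genes listed as monocyte markers were high in cDC2s at day 3. Ly6c2 was at 15.8, 1146, 11.1, 0.70 and 3.92 CPM from sham to day 28, and at day 3 it was also at 833 CPM in cDC1s, 383 CPM in mature DCs, 411 CPM in B cells and 952 CPM in T cells, against 4780 CPM in classical monocytes. Plac8 was at 225, 2623, 118, 14.7 and 112 CPM, and Fcgr1 (CD64), an Fc receptor of monocytes and macrophages, at 9.50, 336, 40.3, 27.9 and 15.7 CPM, with 273 CPM in cDC1s at day 3. Other monocyte markers did not go the same way, since Chil3 (486 to 65.1 CPM), F13a1 and Fn1 were at least 2-fold lower at day 3 and Vcan was at 0 CPM. The summed level of the 17 listed monocyte markers was highest at day 3. What part classical monocytes, 8.67% of kept barcodes at day 3, had in these levels was not tested.

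Cell cycle genes were low in cDC2s at day 3 and again at day 28. The 20 listed genes summed to 3050, 717, 2497, 2478 and 566 CPM from sham to day 28. Of 15 genes that reached the minimum, all of them in sham, 13, 1, 2 and 14 were at least 2-fold lower than sham in the libraries of days 3, 7, 14 and 28. Since 12 of the 15 reached it only through sham at day 3 and 13 at day 28, the direction of most was fixed by the minimum, and of the 3 and 2 others 2 each were lower. Top2a, a topoisomerase of dividing cells, was at 193, 3.34, 138, 204 and 3.92 CPM and Mki67 at 147, 3.34, 111, 202 and 9.80 CPM from sham to day 28, so both genes were high in sham and days 7 and 14. Cells with 5 or more UMIs of Mki67, Top2a, Cdk1 and Birc5 together were 6 of 43 (14.0%), 1 of 36 (2.78%), 92 of 574 (16.0%), 11 of 83 (13.3%) and 0 of 38. Mki67 UMIs in sham came from 10 of the 43 cells and Top2a UMIs from 7. With the highest cell of each gene left out, 8 cell cycle genes reached 50 CPM, and 7 of them were at least 2-fold lower at day 3 and 7 at day 28. In cDC1s 0 of 11 were lower at day 3 (9.24% of all genes) and 7 of 9 at day 28 (6.45%), 5 of the 9 reaching the minimum only through sham, and the list summed to 2416 CPM in sham, 2467 CPM at day 3 and 962 CPM at day 28. T cells had 12 of 13 at least 2-fold higher at day 3 (7.41%), 9 of the 13 through day 3 only, with sums of 1025 CPM in sham and 3076 CPM at day 3.

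The remaining decreases at day 3 included type 2 genes. Il1rl1 was at 109 CPM in sham, 3.34 CPM at day 3 and 38.9, 97.7 and 102 CPM at days 7, 14 and 28, while cDC1s and mature DCs did not exceed 1.82 CPM in any library. Its log2 ratio at day 3, from 2 UMIs, was -5.03 (-8.11 to -3.12). Of 11 type 2 and alternative activation genes 7 were at least 2-fold lower at day 3 (Il1rl1, Retnla, Chil3, Klf4, Ccl22, Irf4 and Mrc1), against 9.08% of all genes, and Il4ra was higher. Of the 7, 2 reached the minimum only through sham, and Il4ra reached it only through day 3. The 21 listed genes summed to 4159 CPM in sham and 1597 CPM at day 3, of which Retnla was 1672 and 135 CPM. Klf4 was at 492, 177, 209, 226 and 333 CPM, lowest at day 3. Hist1h2ap (230 to 6.68 CPM), Ube2c (141 to 3.34 CPM) and Stmn1 (359 to 18.4 CPM), all tied to cell division, were the other leading decreases. Hist1h2ap was also low at day 14 (6.28 CPM), where Top2a and Mki67 were high. Of 18 immediate early genes 8 were lower (9.08% of all genes), 1 of them reaching the minimum only through sham. The 2 that were higher (Hspa1a and Hspa1b) reached it only through day 3, so their direction was fixed. The list summed to 17860 CPM in sham and 9562 CPM at day 3. Without its highest cell the log2 ratio of Stmn1 went from -4.29 to -5.76.

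Day 7 cDC2s, of which there were 574, had high levels of several chemokine genes. Of 3042 genes 120 were at least 2-fold higher than in sham (3.94%) and 135 at least 2-fold lower (4.44%), with a median log2 ratio of -0.04. Chemokine ligands were at least 2-fold higher for 7 of 12 and lower for 0, with 2 of the 12 reaching the minimum only through day 7, among them Ccl17, the inflammatory chemokine Ccl3 and the neutrophil attractant Cxcl2. In the same comparison 3 of 10 were higher in cDC1s (3.43% of all genes), 1 of 7 in mature DCs (4.94%), 9 of 12 in classical monocytes (12.9%), 12 of 13 in B cells (10.8%) and 5 of 7 in T cells (9.09%). Only through day 7 did 2, 0, 6, 10 and 4 of these reach the minimum. The 20 ligands summed to 3586 CPM in sham and 7084 CPM at day 7 in cDC2s, 2555 and 3701 CPM in cDC1s, 14398 and 9611 CPM in mature DCs, 3438 and 9990 CPM in classical monocytes, 1450 and 4500 CPM in B cells, and 4535 and 3159 CPM in T cells, so the sums of mature DCs and T cells were lower at day 7. Ccl22 was at 109, 40.1, 262, 192 and 51.0 CPM and Cxcl2 at 488, 399, 1291, 514 and 406 CPM from sham to day 28, both highest at day 7. One cell supplied 42.0, 79.2, 7.68, 37.1 and 46.2% of the Ccl22 UMIs in the same order, and 60.3% of the Cxcl2 UMIs at day 3.

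Cdh1, Epcam and Itgae were low in sham and higher from day 7 on. Cdh1 (E-cadherin, chr8:106603351-106670246, GRCm38) was at 7.92, 53.5, 207, 184 and 84.3 CPM in cDC2s (log2 ratio 4.71 at day 7, 3.48 to 6.33). Epcam (chr17:87635979-87651129) was at 7.92, 21.7, 204, 179 and 161 CPM (4.69, 3.46 to 6.31). Itgae (CD103, chr11:73090583-73147446), the integrin chain that binds E-cadherin and marks cDC1s, was at 0, 6.68, 68.2, 71.2 and 74.5 CPM, 3.84 log2 units above the floor of 3 UMIs in sham at day 7, with an interval from 3.54. Libraries from day 7 to day 28 were thus above sham and day 3 in all 3 genes.

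Other cells had these genes at different levels. cDC1s had 1.56, 0, 18.3, 9.11 and 16.1 CPM of Cdh1, 122, 66.2, 85.0, 124 and 196 CPM of Epcam, and 383, 273, 478, 401 and 329 CPM of Itgae. B and T cells at day 7 had 17.5 and 32.7 CPM of Cdh1 and 29.9 and 32.0 CPM of Epcam, so both genes were higher in day 7 cDC2s than in either, whereas Itgae in T cells was at 60.5 CPM at day 7 and 120.8 CPM at day 14, close to or above cDC2s. Scgb1a1 was at 394, 43.4, 1059, 422 and 290 CPM in cDC2s, Sftpc at 67.2 CPM and Krt8 at 13.3 CPM at day 7, and both Scgb1a1 and Sftpc come from lung epithelium. At day 7 Scgb1a1 was higher in B cells, T cells and mature DCs than in cDC2s while Epcam and Cdh1 were lower there. What part epithelial RNA had in these levels was not tested.

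**Figure D4:**
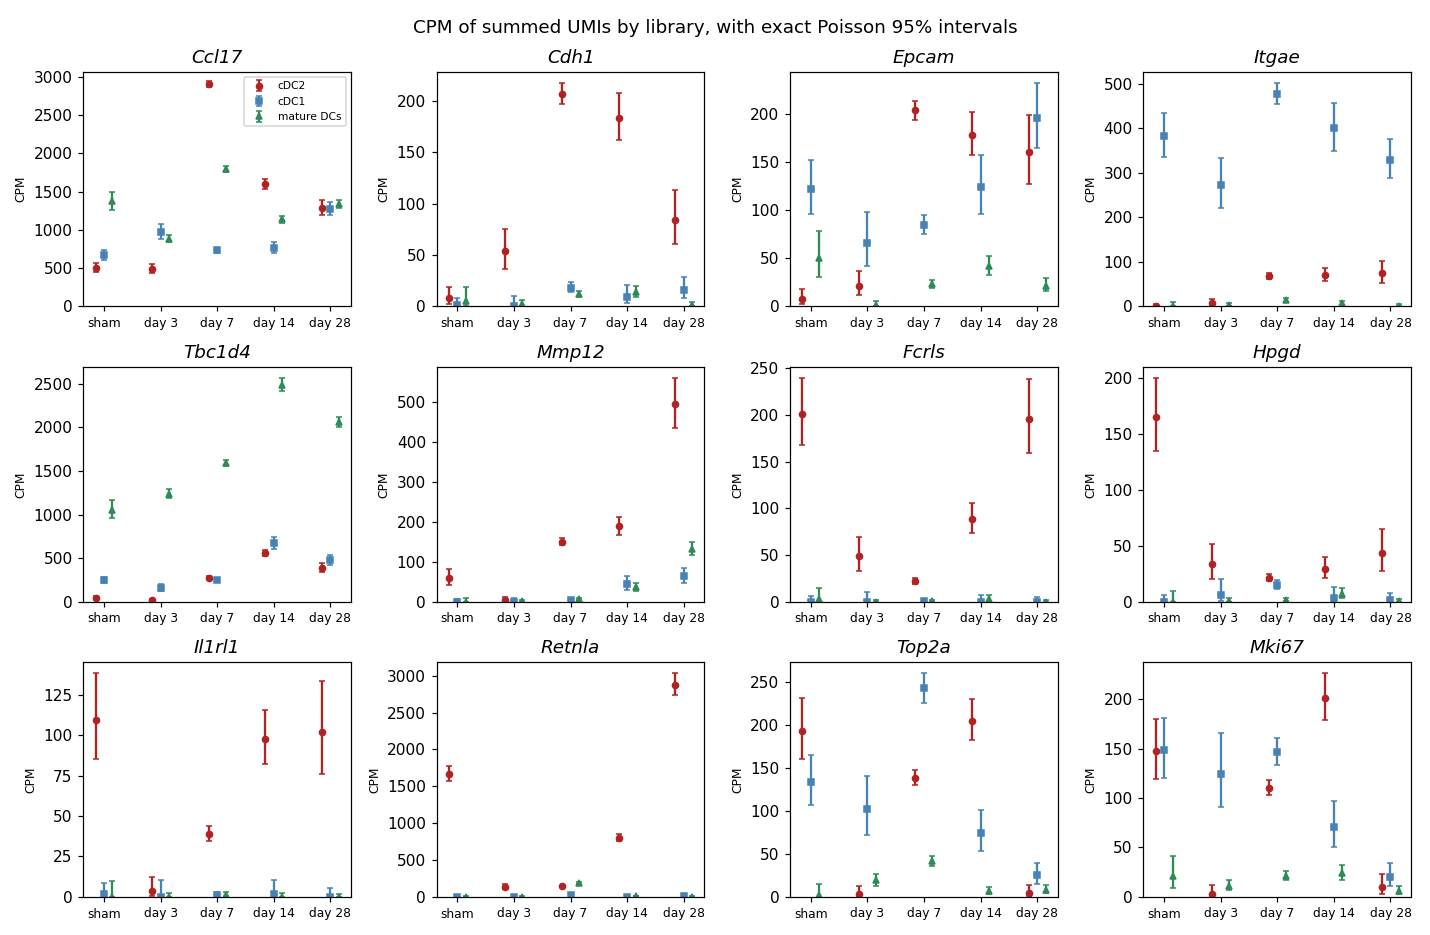
CPM of summed UMIs by library for 12 genes in cDC2s, cDC1s and mature DCs, with exact Poisson 95% intervals. Cdh1 was at 84.3 to 207 CPM in cDC2s from day 7 and at most 18.3 CPM in the other classes, Ccl17 is highest in cDC2s at day 7 (2898 CPM), and Top2a and Mki67 in cDC2s are near 0 at days 3 and 28.

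Further genes that were higher at day 7 included Mfge8, a bridging molecule for apoptotic cells, at 25.3, 26.7, 171, 94.9 and 116 CPM, and Id2, a factor of dendritic cell development, at 230, 232, 612, 608 and 954 CPM. Kit was at 14.3, 16.7, 65.9, 107 and 66.6 CPM and Il1r2, the decoy receptor for interleukin-1 that is also on the list of neutrophil markers, at 45.9, 60.1, 170, 239 and 125 CPM. Clec4n was at 117, 185, 497, 325 and 239 CPM, highest at day 7. S100a8 (23.8 to 216 CPM) and Mgp (9.50 to 105 CPM) were also among the 6 largest increases, but 1 cell supplied 37.3% and 64.8% of their UMIs at day 7.

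Several genes that were high in sham cDC2s were low at day 7. Fcrls was at 201, 48.4, 22.2, 88.6 and 196 CPM from sham to day 28 (log2 ratio -3.18 at day 7, -3.52 to -2.84), and it was at most 2.85 CPM in cDC1s and mature DCs. Hpgd, which inactivates prostaglandins, was at 165, 33.4, 21.3, 29.3 and 43.1 CPM, Wls, which carries Wnt proteins to the surface, at 291, 135, 39.5, 64.9 and 359 CPM, and Cd81 at 136, 40.1, 23.6, 60.7 and 98.0 CPM. Fcrls and Wls were thus lowest at day 7 and at day 28 at the sham level or above it, whereas Hpgd stayed low.

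Retnla, a gene of the response to interleukin-4 and interleukin-13, was at 1672, 135, 141, 805 and 2881 CPM from sham to day 28 (log2 ratio -3.57 at day 7). One cell supplied 62.9, 85.2, 18.5, 26.3 and 52.2% of its UMIs in the same order, and UMIs were seen in 6 of the 43 sham cells and 210 of the 574 day 7 cells. The log2 ratio at day 7 was -2.55 without the highest cell of each library, -2.31 with doublets removed and -2.13 among cells with 5 or more lectin UMIs. Ccr2 (267 CPM at day 7) and Lyz2 (1234 CPM) were also at least 2-fold below sham at day 7. Of 11 monocyte markers 5 were lower (4.44% of all genes), 1 of them reaching the minimum only through sham, and only Ms4a4c was higher (3.94%). The 17 listed monocyte markers summed to 9773 CPM in sham and 9774 CPM at day 7.

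Day 14 and day 28 kept part of the day 7 pattern. At day 14, 229 of 3206 genes were at least 2-fold higher than in sham (7.14%) and 109 lower (3.4%), with a median log2 ratio of 0.03, and at day 28, 151 of 3109 were higher (4.86%) and 225 lower (7.24%), with a median of -0.09. Cdh1 and Epcam were among the 6 largest increases at day 14 (log2 ratios 4.54 and 4.50) and Epcam at day 28 (4.34). Ccl5 was at 3.17 CPM in sham and 111 CPM at day 14, but 62.5 CPM without 1 of the 83 cells, which supplied 44.7% of its UMIs (68.3% from 1 cell at day 28), and Hspa1b at 4.75 and 109 CPM. Costimulation and checkpoint ligands were at least 2-fold higher for 4 of 9 at day 14 (Cd274, Havcr2, Icosl and Lgals9) and lower for 0. All 4 reached the minimum only through day 14, so their direction was fixed. Of the 5 that reached it in sham, 0 were higher. The 15 listed ligands summed to 1208 CPM in sham and 1293 CPM at day 14. At day 28 they were higher for 0 of 5 and lower for Cd83 and Pvr, with a sum of 804 CPM.

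At day 28 further genes stood above sham. Tbc1d4, a Rab GTPase activator listed as a mature DC marker, was at 44.3, 15.03, 277, 557 and 388 CPM in cDC2s. Mmp12, the macrophage elastase, was at 58.6, 3.34, 150, 188 and 494 CPM, highest at day 28, when B and T cells had 481 and 432 CPM. Apoe, another gene on the C1q macrophage list, was at 162, 70.2, 361, 382 and 288 CPM and was seen in 3 of 43 cells in sham, 12 of 36 at day 3, 472 of 574 at day 7, 80 of 83 at day 14 and 36 of 38 at day 28, with B cells at 4786 CPM at day 7. In sham 100 of the 102 Apoe UMIs came from 1 cell, without which Apoe was at 3.30 CPM. The part of macrophage RNA in these levels was not tested. Apobec3, a cytidine deaminase that restricts retroviruses, was at 14.3, 135, 69.0, 20.9 and 106 CPM. At the other end Cd209d was at 35.3 CPM and Clec10a at 116 CPM at day 28, both at least 2-fold below sham, and Irf4 was at 62.7 CPM against 131 CPM. Il1rl1 (102 CPM), Fcrls (196 CPM) and Mrc1 (282 CPM against 252 CPM) were close to sham.

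A few of the largest ratios belonged to genes that also differed between libraries in T cells. Gm10709, a processed pseudogene at chr9:7751725-7752204, was at 0, 389, 368, 129 and 92.1 CPM in cDC2s and 0, 642, 415, 141 and 90.5 CPM in T cells. Gm8730, another processed pseudogene, was at 496, 391, 30.9, 33.5 and 39.2 CPM in cDC2s and 754, 658, 37.2, 33.2 and 41.7 CPM in T cells. Rpl29, a ribosomal protein gene, dropped to 11.2 CPM at day 14 from 1435 CPM in sham and to 8.62 CPM in T cells. Rps27rt, AY036118 and Gm10076 also differed between libraries in the same way in cDC2s and T cells, and pseudogene and ribosomal reads may be hard to assign. Plac8 (14.7 CPM) and Ly6e (24.4 CPM) were lowest at day 14, and Ly6e was at 2215 CPM at day 3. The log2 ratio of Plac8 at day 14 was -3.94, but -4.75 without its highest cell and -5.00 among cells with 5 or more lectin UMIs. Sprr1a at day 14 (118 CPM) came from 1 cell.

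Other lists are given by their counts, beside 10.1, 3.94, 7.14 and 4.86% of all genes higher and 9.08, 4.44, 3.4 and 7.24% lower at days 3, 7, 14 and 28. MHC class II presentation genes had 1 of 11 at least 2-fold higher at day 3 (Ifi30) and 0 lower, 1 each way at day 7, and H2-DMb1 was at 1127, 1856, 690, 538 and 488 CPM. Of 26 transcription factors 0 were at least 2-fold higher at day 3 and 3 lower (Klf4, Irf4 and Cebpa), and at day 7 Id2, Nr4a3 and Runx1 were higher of 25 measured and Klf4 lower. At day 28 there were 2 higher and 3 lower. Of 7 cytokines 3 were higher at day 7 (Il1rn, Tnf and Cxcl16) and 0 lower, with Il1rn reaching the minimum only through day 7. The 21 listed cytokines summed to 2582 CPM in sham and 3755 CPM at day 7. Il1b was at 1716, 2721, 2556, 3122 and 1341 CPM, whereas Il1rn, which encodes the interleukin-1 receptor antagonist, was at 25.3 CPM in sham and at least 2-fold higher at all 4 later times (58.5, 85.4, 65.6 and 70.6 CPM). Sham lay below the minimum of 50 CPM, so the direction of Il1rn was fixed at all 4 times. Tnf was lowest at day 3 (13.4 CPM) and highest at day 7 (211 CPM). Of 4 p53 targets 0 were 2-fold apart from sham at day 3, and of 7 integrins only Itgae was higher at day 7, with Itgam and Itgb7 lower. Itgae reached the minimum only through day 7, so its direction in this count was fixed.

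The reporter addresses whether cells came from Ms4a3-expressing progenitors, and its transcript was taken to be the feature named RFP. It was at 157, 463, 148, 172 and 88.2 CPM in cDC2s from sham to day 28, so day 3 was highest (log2 ratio 1.56, 1.23 to 1.91) and day 28 lowest (-0.83, -1.37 to -0.31, with 46.7% of the day 28 UMIs from 1 cell). To compare cells of different depth, each was thinned to 2000 UMIs. At least 1 RFP UMI was then seen in 3 of 43 sham cDC2s (6.98%, exact binomial interval 1.46 to 19.1%), 15 of 36 at day 3 (41.7%, 25.5 to 59.2%), 111 of 574 at day 7 (19.3%, 16.2 to 22.8%), 22 of 83 at day 14 (26.5%, 17.4 to 37.3%) and 5 of 38 at day 28 (13.2%, 4.41 to 28.1%).

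B and T cells, which do not descend from these progenitors, were the reference for reporter UMIs in cells outside the lineage. After thinning, RFP was seen in 15.2, 10.6, 21.97, 35.2 and 14.1% of B cells and in 20.8, 11.3, 21.8, 38.8 and 23.6% of T cells. After thinning, the share in cDC2s lay above both only at day 3 (41.7%, interval from 25.5%). In sham and at days 7, 14 and 28 it did not exceed the larger of the B and T cell shares, and in sham and at day 14 its interval lay below the T cell share. Thinning is a random draw, and its error is not part of these intervals. Before thinning, 32 of the 43 sham cDC2s had 1 or more RFP UMIs and 12 had 3 or more. By CPM, sham cDC2s (157 CPM) were slightly above B cells (123 CPM) and T cells (135 CPM) of that library, which the thinned share did not show. Before thinning, median depth was 4150, 5800, 7143, 5525.5 and 3448 UMIs in B cells and 5825, 8820.5, 6866, 5138 and 4103 UMIs in T cells, well below that of cDC2s. The unthinned shares were 74.4, 72.2, 58.0, 86.7 and 44.7% in cDC2s, above the 21.7, 23.9, 45.8, 60.5 and 25.3% in B cells and the 43.2, 37.1, 51.3, 70.7 and 39.5% in T cells in all 5 libraries. The thinned and unthinned orders thus differed outside day 3, and the part of depth and of free RNA in either was not tested.

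Of the other classes at day 3, cDC1s and mature DCs lay between lymphocytes and cDC2s, and classical monocytes lay above cDC2s. After thinning RFP was seen in 4 of 14 cDC1s (28.6%), 32.7% of mature DCs and 77.4% of classical monocytes at day 3, against 19.4, 23.1 and 66.7% in sham. cDC1s and mature DCs at days 7, 14 and 28 had 15.8, 31.0 and 11.6% and 15.5, 38.3 and 14.9%. The day 3 interval for cDC2s included the shares in cDC1s and mature DCs and lay below the share in classical monocytes. Before thinning, only the day 7 library held at least 20 cDC2s with and 20 without RFP UMIs, so such cells were not compared over replicates. After thinning day 14 also held at least 20 of each, with RFP in 22 of 83 cells, and these were not compared either.

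**Figure D5:**
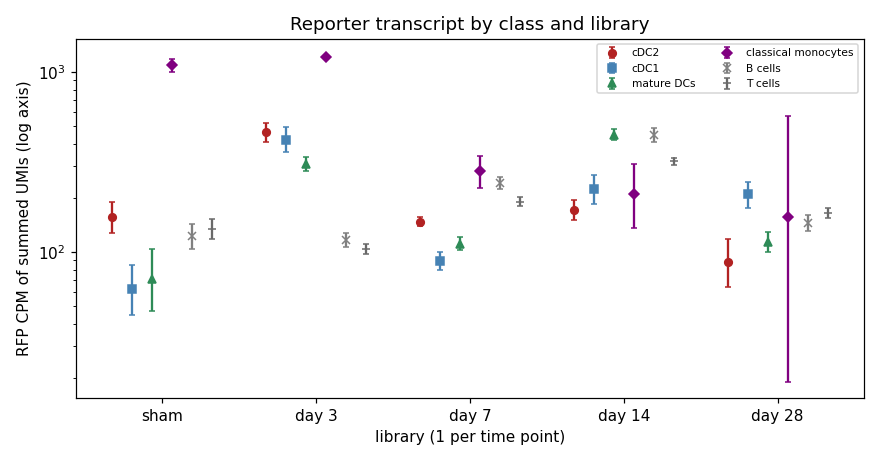
RFP, the reporter transcript, as CPM of summed UMIs (log axis) in 6 classes and 5 libraries, with exact Poisson 95% intervals. cDC2s at day 3 (463 CPM) lay above B and T cells of the same library and below classical monocytes, and at day 28 (88.2 CPM) they lay below both lymphocyte classes.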

How the data were processed

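Single-cell suspensions were sequenced with the 10x 3′ v3.1 chemistry, and the authors deposited filtered UMI counts per gene and barcode. The submitters' processing notes name Cell Ranger 6.0.0 and mm10, whereas the headers of the deposited counts give another software version. From these deposited counts, barcodes were kept by genes, UMIs and mitochondrial share, and classes were set by raw UMIs of the genes given above. The members and lists were chosen with earlier results of these data known. UMIs were summed per class and library, using libraries with at least 20 cells of each class, and tested with edgeR 4.0.16 (TMM, quasi-likelihood, library as block, Benjamini-Hochberg adjustment, n = 3 to 5 libraries). DESeq2 1.42.0 was an alternative. Days were compared with sham by ratios of CPM with exact conditional 95% intervals. Doublets were scored with Scanpy 1.11.5 and not removed. Named genes were the 8 largest differences in each direction between classes (adjusted p under 0.05, the same direction in every library, 100 CPM or more) and the 6 largest in each direction by day, of which 1 gene is not reported here. Tests were checked on simulated counts. Of 436 listed symbols 434 were found, and Clec7a and Mx2 were not analysed here.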

Additional observations from a re-analysis of the deposited data

Results flagged for a closer look

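Ccl17 changed sides between libraries when cDC2s were set against other dendritic cells. Against cDC1s its log2 ratio was 1.99 at day 7 and 1.06 at day 14, but -0.41 in sham and -0.98 at day 3. Against mature DCs it was 0.69 at day 7 and 0.49 at day 14, but -1.44 in sham and -0.83 at day 3. The counting intervals of these ratios excluded 0 on opposite sides. The difference between libraries was not tested, since each time point was 1 library.

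The reporter transcript RFP did the same by CPM. Against cDC1s the log2 ratio was 1.33 in sham and 0.72 at day 7, but -0.38 at day 14 and -1.25 at day 28. Against mature DCs it was 1.14 in sham, 0.58 at day 3 and 0.40 at day 7, but -1.39 at day 14. After thinning, the order in sham was reversed, with RFP in 6.98% of cDC2s, 19.4% of cDC1s and 23.1% of mature DCs. It was also reversed against cDC1s at day 28 (13.2% of cDC2s, 11.6% of cDC1s). Counting intervals of the reversed shares overlapped. The thinned order was the same as by CPM at days 7 and 14, and against mature DCs at day 3. A single cell also supplied a large part of the day 28 RFP UMIs in cDC2s, as given above. The difference between libraries was not tested either.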

How the results depend on the processing

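With 5 or more lectin UMIs required, cDC2s were 5.46% of day 7 barcodes, and with barcodes under 4624 UMIs left out they were 1.45% at day 14 and 0.510% at day 28. Genes at least 2-fold from sham at 100 CPM or more numbered 208 higher and 120 lower at day 3, 66 and 68 at day 7, 103 and 50 at day 14, and 63 and 98 at day 28. Lower cell cycle genes at days 3 and 28 numbered 7 of 7 each under that minimum, 7 of 9 with the mean of CPM per cell, and 7 of 8 with the highest cell of each gene left out, an alternative chosen after seeing the data, against 13 and 14 of 15, since fewer genes were measured. Reporter shares without thinning were 74.4, 72.2, 58.0, 86.7 and 44.7%, and with 2 or more RFP UMIs after thinning 0, 25, 4.70, 4.82 and 0%.

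Without a filter on low counts, 883 genes were higher and 776 lower than in cDC1s, and 581 and 835 than in classical monocytes. Without the replicate block for library, the counts were 243 and 269 against cDC1s and 106 and 142 against classical monocytes, where Retnla, Clec4b1 and S100a8 no longer passed (edgeR adjusted p = 0.0857, 0.0543 and 0.152). Leaving out 1 library at a time gave 310 to 544 higher and 315 to 543 lower against cDC1s, 1523 to 1975 and 1541 to 1931 against mature DCs, and 208 to 645 and 264 to 894 against classical monocytes. Without day 14, 315 were lower than in cDC1s. Without sham, 645 were higher and 894 lower than in monocytes, and without day 7, 264 were lower. The cause was not tested. By unthinned counts, cells with and without reporter UMIs could not be fitted. Mean CPM per cell gave no ratio for Rsad2, Gm10709, Hist1h2ap and 2810417H13Rik, which had 0 UMIs in 1 of the libraries compared. Few cells outside day 7, sham included, and 1 library per time point limit the comparisons by day.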
